A study of Saccharomyces cerevisiae with 24 samples.

Results

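Budding yeast (Saccharomyces cerevisiae) received the same high dose of hydrogen peroxide with and without a preceding low dose, and the RNA of the 2 protocols was compared across the genome. The comparison rests on 8 of the 24 arrays of the series, 4 acute and 4 adapted. Acute cells were given 0.4 mM H2O2 for 1 h. Adapted cells were given 0.1 mM for 45 min and then 0.4 mM for 1 h. All cells were wild type BY4741, a MATa haploid laboratory strain with deletions in HIS3, LEU2, MET17 (MET15) and URA3, grown in rich medium. The untreated RNA came from a portion of the same culture that was given buffer in place of peroxide. Each array carried the treated RNA in one dye and its own untreated RNA in the other, with the treated RNA in Cy5 on replicates 1 and 2 and in Cy3 on replicates 3 and 4 of each group. The 4 arrays of a group were described in the methods as biological replicates, each acute one started from its own colony. Cells that died and cells that responded could not be told apart in RNA from whole cultures, nor could fewer cells with a transcript and less of it per cell.

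Hydrogen peroxide is destroyed in yeast by catalases, peroxiredoxins and glutathione peroxidases, and the last 2 families are recharged with electrons that pass from NADPH through thioredoxin or glutathione. The transcription factor Yap1 senses peroxide and, with Skn7, switches on the genes of these enzymes, while Msn2 and Msn4 switch on a general stress program and growth genes such as those for ribosomes are turned down. A mild dose makes yeast more resistant to a later strong dose, which is known as adaptation. The question put by the comparison was which parts of the response to the strong dose differ in cells that had met the weak dose before.

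The value for each open reading frame (ORF) was the log2 of treated over untreated intensity, so that 0 means no response and 1 a doubling. Of the 6251 ORFs of the table, 6212 had values on all 8 arrays and were tested. The difference is the acute mean minus the adapted mean from a fit with a dye term, and a positive difference means a higher ratio in acute cells. Errors are standard errors (SE) of the fit with n = 4 arrays a group unless another error is named, and an ORF was called at a Benjamini-Hochberg adjusted p under 0.05. The median SE of a difference was 0.112.

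The ratios of the 4 arrays of each group had been brought to a common distribution before deposit. Their standard deviation (SD) over ORFs was 0.946 on acute and 0.425 on adapted arrays, and they spanned -4.31 to 6.62 on acute and -2.03 to 3.97 on adapted arrays. Differences are therefore on a scale in which the acute arrays are the wider ones. Each array was also divided by its own SD. Results whose call then changed, or that turned round with a call in either fit, are given in units of that SD beside their values. Biology and the normalization of each group cannot be told apart as sources of the wider acute distribution. Dye mattered most in adapted cells, where the SD over ORFs was 0.324 for the dye component and 0.254 for the response, against 0.37 and 0.855 in acute cells. Across ORFs, which are not independent replicates, acute arrays with swapped dyes had r of 0.599 to 0.733 and adapted ones of -0.325 to -0.133, while pairs labelled the same way had r of 0.893 and 0.969 in acute and at 0.81 and 0.961 in adapted cells. Markers of a MATa strain fitted the label. STE2, MFA1 and MFA2 lay at or above the 88.5 percentile of intensity in all 16 channels and STE3, expressed in the other mating type, at or below the 13.3 percentile. Of the deleted genes, HIS3, LEU2 and URA3 lay at or below the 2.63, 10.2 and 11.5 percentiles where they had values, and MET17 had none. Results for methionine, leucine and uracil genes below are those of a strain without these genes.

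The 2 protocols differed across much of the genome at the same final dose. Of the 6212 ORFs, 1776 (28.6%) were higher and 1731 (27.9%) lower in acute than in adapted cells, 56.5% in all. Differences of log2 1 or more were called for 447 ORFs that were higher (7.2%) and 534 that were lower (8.6%), and for 1886 ORFs (30.4%) the 4 acute and the 4 adapted values did not overlap. All 3507 called ORFs had the same sign of difference within the Cy5 arrays and within the Cy3 arrays. The call rests on the mean of these differences and counts their disagreement as error. The shared sign is therefore no separate check. Against untreated cells, 4438 ORFs (71.4%) were called in acute cells, 2144 raised (34.5%) and 2294 lowered (36.9%). In adapted cells 785 (12.6%) were called, 425 raised (6.84%) and 360 lowered (5.8%). The adapted count depended on single arrays. It was 289, 219, 523 and 282 without adapted replicate 1, 2, 3 or 4, and 1351 without acute replicate 3. When arrays were scaled to an SD of 1, the counts were 927 higher and 859 lower, and 1713 of the 3507 calls were made again in the same direction.

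**Figure D1:**
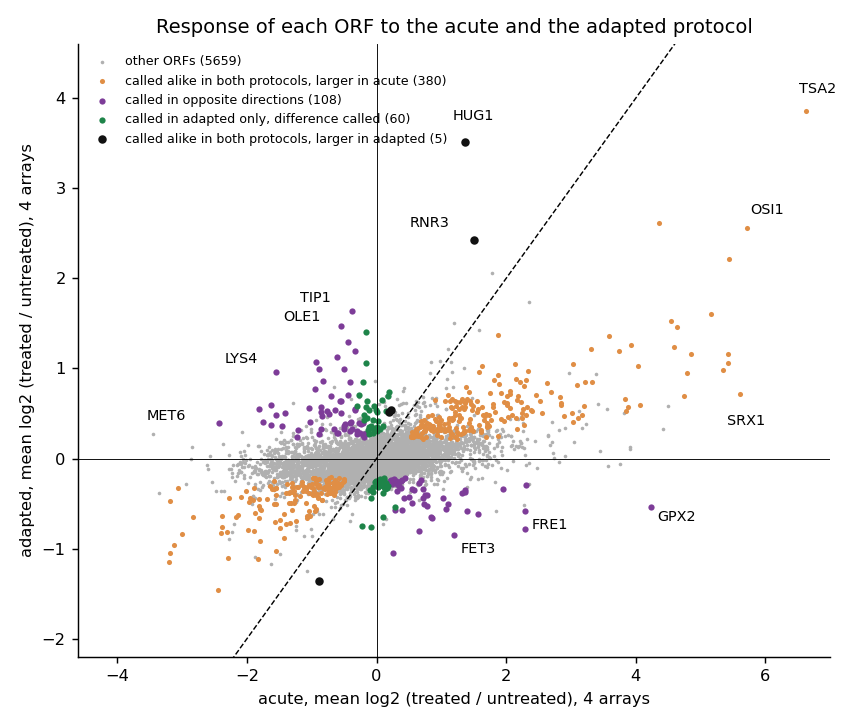
Each point is 1 of the 6212 ORFs, with the mean log2 of treated over untreated intensity on 4 acute arrays on the horizontal axis and on 4 adapted arrays on the vertical axis. Most points lie far closer to the horizontal axis than the dashed line of equal response. HUG1 and RNR3 stand above that line, and coloured groups are the classes described in the text.

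On the deposited scale, adapted responses mostly went the same way as acute ones and were smaller. The sizes in the comparison that follows rest on the distribution given to each group. Of 542 ORFs with an acute mean of 1 or more, 462 had an adapted mean above 0, and the median ratio of the adapted to the acute log2 response was 0.14. Of 599 ORFs with an acute mean of -1 or less, 461 had an adapted mean below 0, with a median ratio of 0.08. The 20 ORFs with an acute mean above 4 had a median of 4.77 in acute and 1.11 in adapted cells. Means of log2 1 or more in size numbered 1141 in acute and 51 in adapted cells. Over all ORFs the acute and adapted means correlated at r = 0.50 (Spearman's rho = 0.45), as a description over genes that share arrays and dye effects.

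Most ORFs with a called difference were called against untreated cells in acute cells only, 1423 of them raised and 1449 lowered. A further 380 were called in both protocols in the same direction with a larger acute response, 225 raised and 155 lowered. Opposite directions were called for 108 ORFs, 49 raised in acute and lowered in adapted cells and 59 the other way. Another 60 had a called response in adapted cells, a called difference and no called response in acute cells. In 5 ORFs the response had the same direction and was larger in adapted cells. These classes moved with single arrays. Without acute replicate 3 the counts, in the order larger in acute, opposite, adapted only and larger in adapted, were 654, 166, 98 and 9. Without adapted replicate 1 they were 148, 40, 12 and 4, without adapted replicate 2 they were 101, 45, 10 and 5, without adapted replicate 3 they were 226, 77, 39 and 9, and without adapted replicate 4 they were 126, 45, 23 and 5. The class larger in adapted cells held 11 ORFs without acute replicate 4.

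The genes with the highest difference included many enzymes that deal with peroxide and its products. These genes, and the lowest ones below, were taken from called ORFs without overlap between groups. A call and separate groups are thus conditions of their choice. SRX1 (YKL086W), sulfiredoxin, which repairs over-oxidized peroxiredoxins, was at 5.58, 6.0, 5.37 and 5.50 in acute cells, against 0.35, 0.91, 0.16 and 1.45 in adapted cells. All acute arrays lay far above all adapted arrays, and the difference was 4.89 ± 0.27 (adjusted p 2.22e-06). Next came GPX2 (YBR244W), a glutathione peroxidase, with 3.68, 3.43, 4.83 and 4.99 in acute cells, against -1.33, -0.62, -0.30 and 0.08 in adapted cells (difference 4.77 ± 0.18, adjusted p 5.12e-07). GPX2 was thus raised in acute cells and lowered on average in adapted cells (-0.54, adjusted p 0.0251). Its adapted values split by dye, and adapted replicate 4 was at 0.08. The glutathione transferases GTT2 and ECM4 (4.37 and 4.26), the NADPH oxidoreductase OYE3 (4.08), the methylglyoxal reductase GRE2 (3.78), and the putative aryl-alcohol dehydrogenases AAD6 (3.92) and AAD4 (3.84) followed, with the stress gene DDR2 (3.70), RGI1 (3.66) and the ORFs YNL134C (4.36), YFL057C (4.05) and YMR090W (3.55). Members of the AAD family are near-identical in sequence and their probes may share signal. The untreated level of YNL134C also differed between arrays, as given below.

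At the other end stood genes of methionine, nucleotide and amino acid synthesis, ribosomes and sugar uptake. MET6 (YER091C), methionine synthase, was at -4.31, -2.97, -3.21 and -3.30 in acute cells, against 0.10, -0.35, 1.12 and 0.22 in adapted cells. The groups did not overlap, and the difference of -3.72 ± 0.29 (adjusted p 1.1e-05) was the lowest of all ORFs. Also lower in acute cells were MAE1, mitochondrial malic enzyme (-2.98), RPS7A (-2.96) and RPS26B (-2.48) of the small ribosomal subunit, SAM1, which makes S-adenosylmethionine (-2.85), HPT1 (-2.74) and AAH1 (-2.59) of purine salvage, the RNA helicase DBP2 (-2.71), URA1 of pyrimidine synthesis (-2.66), the hexose transporters HXT2 (-2.54) and HXT3 (-2.37), and LEU1 (-2.54), an iron-sulphur enzyme of leucine synthesis. PHO3, an acid phosphatase, differed by -2.83 ± 0.08, a value its near-identical neighbour PHO5 (-1.43) may share in. Ratios of MET6 and RPS7A were the lowest of their array on 1 acute array each, where the common distribution sets the value.

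Counts in the lists that follow stand against 28.6% higher and 27.9% lower over all ORFs. Against untreated cells these shares were 34.5% raised and 36.9% lowered in acute, and 6.84% and 5.8% in adapted cells. Among the enzymes that remove peroxide, 10 of 11 were higher in acute cells and none lower, with a median difference of 2.02, against 0.00 over all ORFs. With arrays scaled to an SD of 1, 5 of the 11 were higher and 1 lower, with a median of 0.89. These are differences of ratios. For AHP1 the difference lay in the untreated channel and for TSA1 in both channels, as given below. Beside GPX2, the mitochondrial peroxiredoxin PRX1 differed by 3.35 ± 0.20, cytochrome c peroxidase CCP1 by 2.52 ± 0.09, the main cytosolic peroxiredoxin TSA1 by 2.43 ± 0.17 and peroxisomal catalase CTA1 by 1.67 ± 0.17. The glutathione peroxidases HYR1 (0.74) and GPX1 (0.72) and the nuclear peroxiredoxin DOT5 (0.53) differed less, and none of these 3 was called after that scaling (HYR1 0.37, adjusted p 0.218, GPX1 0.55, adjusted p 0.167, and DOT5 0.31, adjusted p 0.466). Cytosolic catalase CTT1 was at -0.28, 0.25, 0.34 and 0.58 in acute cells, against -0.32, -0.27, 0.14 and 0.07 in adapted cells. These overlap, and its difference of 0.32 ± 0.12 did not pass (adjusted p 0.0527, though 0.0114 without acute replicate 1 and 0.0415 without acute replicate 3). Signals of CTT1 and GPX1 were weak, between the 11.2 and 17.7 and between the 6.15 and 23.1 percentiles of intensity over all channels. STE3 lay at or below the 13.3 percentile. A small ratio of these 2 genes may thus reflect a signal near the floor, which was not tested.

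TSA2, the inducible cytosolic peroxiredoxin, had the highest ratio of the array on all 4 acute arrays, 6.62, and on adapted replicates 2 to 4, 3.97, with 3.50 on adapted replicate 1. No other gene was at the top of so many arrays, so TSA2 ranked highest on 7 of the 8 arrays and the size of its difference (2.77) was set by the ranges of the 2 distributions. With arrays divided by their SD the difference turned to -2.10 (adjusted p 0.000544). AHP1, a further peroxiredoxin, was at 4.54, 4.18, 1.25 and 1.90 in acute cells, against 0.69, 1.93, 0.60 and 0.58 in adapted cells (difference 2.02 ± 0.42, adjusted p 0.00287). Its acute values split by dye, and adapted replicate 2 lay above acute replicates 3 and 4. AHP1 was not called with arrays scaled to an SD of 1 (0.89, adjusted p 0.275).

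**Figure D2:**
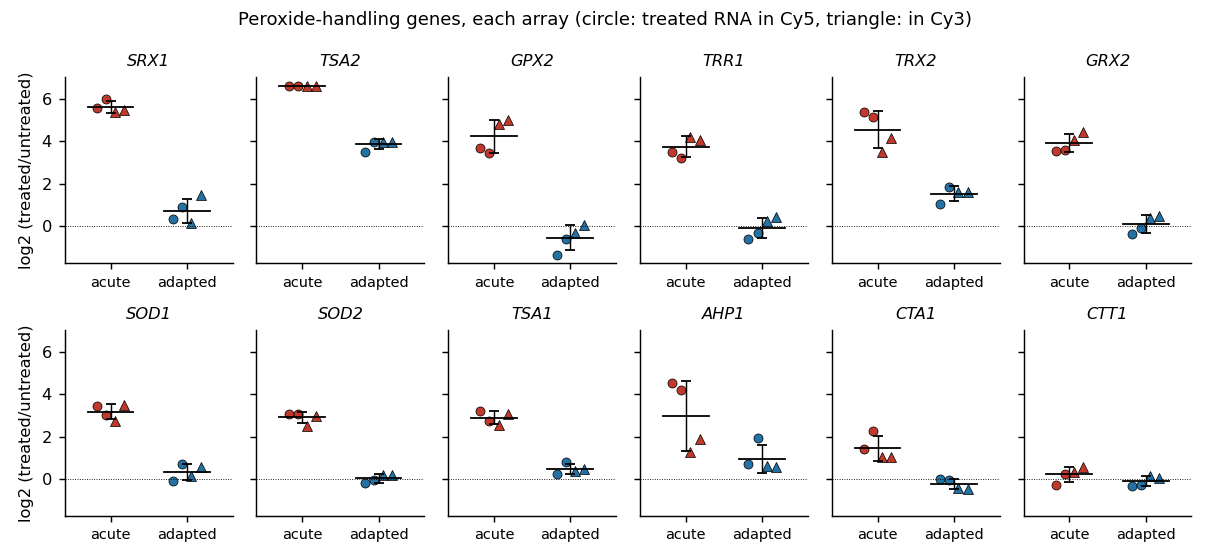
Each panel shows log2 of treated over untreated intensity for a gene on the 4 acute (red, left) and 4 adapted arrays (blue, right), with circles for treated RNA in Cy5 and triangles for Cy3, the mean as a bar and the SD as a whisker. SRX1 and GPX2 separate the groups by over 4 log2 units, TSA2 is level on the acute arrays and lower on adapted replicate 1 than on the other adapted arrays, and the values of CTT1 overlap.

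The thioredoxin and glutaredoxin systems, which recharge these enzymes, had 9 of 16 genes higher in acute cells and 3 lower (median 0.50). TRR1, cytosolic thioredoxin reductase, was at 3.52, 3.19, 4.22 and 4.08 in acute cells, against -0.59, -0.32, 0.23 and 0.43 in adapted cells, a difference of 3.82 ± 0.11 (adjusted p 1.37e-07). All acute values were above 3 and the adapted values lay on both sides of 0, with a mean of -0.06. Glutaredoxin GRX2 differed by 3.80 ± 0.11, thioredoxin TRX2 by 3.02 ± 0.33 (1.2 and adjusted p 0.103 with arrays scaled to an SD of 1), GRX1 by 1.39, TRX1 by 0.89 and the mitochondrial reductase TRR2 by 0.73. The iron-handling glutaredoxins stood apart, with GRX3 at -0.07 ± 0.08 (adjusted p 0.498) and GRX4 at -0.68 ± 0.11 (adjusted p 0.000732). GRX8 (-1.19) and the methionine sulfoxide reductase MXR1 (-0.73) were lower in acute cells. All 3 genes of the superoxide dismutase list were higher in acute cells. The dismutases differed by 2.83 ± 0.22 (cytosolic SOD1) and 2.88 ± 0.15 (mitochondrial SOD2), and the copper chaperone CCS1 by 1.00 ± 0.20. SOD2 was at 3.09, 3.07, 2.51 and 2.98 in acute cells, against -0.20, -0.06, 0.18 and 0.21 in adapted cells, where its mean was not called (0.03, adjusted p 0.877).

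In a few of these genes the untreated RNA differed between arrays as well. The channels taken singly, each quantile-normalized over the 8 arrays, gave 3394 called ORFs (54.6%) in the treated channel and 0 (0.0%) in the untreated channel, where 481 had an unadjusted p under 0.05 with limma. Of the 3507 called differences, 3489 had the same sign in the treated channel alone. In 202 of them an opposite shift of the untreated channel made up more than 50% of the difference. TRX2 was one of the genes whose untreated level differed most. Its untreated intensity was 354, 488, 14346 and 10956 on the acute arrays, against 9983, 6639, 10039 and 13239 on the adapted arrays. Its treated intensity was 14671, 17408, 164285 and 192498 on the acute arrays, against 20310, 24273, 30776 and 40134 on the adapted arrays. The low untreated values were those of acute replicates 1 and 2, where TRX2 lay at the 30.8 and 42.0 percentiles of the channel, while it lay between the 95.0 and 97.2 percentiles on the other 6 arrays. In 3 ORFs the untreated percentile was lower on acute replicates 1 and 2 than on all other arrays by 20 points or more. They were TRX2 (53.0 points), YNL134C (31.1) and AHP1 (20.5). AHP1 had a difference of -0.03 in the treated channel and of -2.02 in the untreated channel. TSA1 differed by 1.05 in the treated and -1.32 in the untreated channel, SOD1 by 1.70 and -1.25, and TRR1 by 2.64 and -1.24. SRX1 (5.21 and -0.07) and GPX2 (4.46 and -0.57) differed nearly wholly in the treated channel. The part of these untreated levels in the differences was not tested further.

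**Figure D3:**
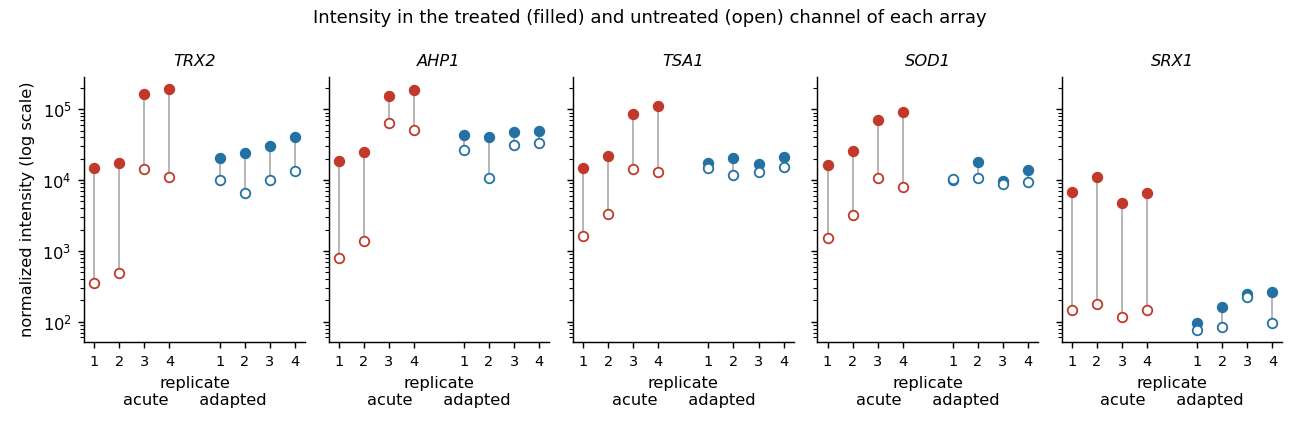
Normalized intensity on a log axis in the treated (filled) and untreated (open) channel of each array, acute replicates 1 to 4 in red and adapted replicates 1 to 4 in blue, with a line joining the channels of an array. The open points of TRX2 lie at 354 and 488 on acute replicates 1 and 2 and between 6639 and 14346 on all others, while those of SRX1 lie between 76 and 223 throughout.

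Glutathione genes were higher in acute cells in 12 of 16 cases and lower in 3 (median 0.71). Glutathione reductase GLR1, which regenerates reduced glutathione with NADPH, differed by 2.40 ± 0.11, the synthesis enzymes GSH1 and GSH2 by 1.71 ± 0.10 and 1.12 ± 0.11, and YCF1, which pumps glutathione conjugates into the vacuole, by 1.66 ± 0.10. GSH1 was raised in acute cells (1.32) and lowered in adapted cells (-0.39, adjusted p 0.0106). The 3 that were lower in acute cells take up or break down glutathione or its peptides, OPT1 (-1.34), DUG3 (-0.87) and DUG2 (-0.29, not called with arrays scaled to an SD of 1, adjusted p 0.0929).

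Supply of NADPH did not move as a block, with 5 of 18 genes higher, 6 lower and a median difference of -0.07. These counts are 27.8% and 33.3%, near the 28.6% and 27.9% over all ORFs. ZWF1, glucose-6-phosphate dehydrogenase at the entry of the pentose phosphate pathway, was at 3.12, 3.06, 2.43 and 3.01 in acute cells, against -0.10, 0.17, 0.74 and 0.52 in adapted cells, a difference of 2.57 ± 0.21. The paralogs SOL4 (2.39), NQM1 (1.75) and GND2 (0.91) were higher with it. Genes of the following steps were lower in acute cells, namely RKI1 (-2.12), RPE1 (-1.46), TKL1 (-1.07), SOL3 (-1.06) and GND1 (-0.89), the main phosphogluconate dehydrogenase. TAL1, the main transaldolase, had a mean of 0.06 in acute and 0.29 in adapted cells (difference -0.23, adjusted p 0.0545). With arrays scaled to an SD of 1, GND2 was not called (0.12, adjusted p 0.799) and TAL1 was lower (-0.61, adjusted p 0.0262).

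Reductases of aldehydes and unsaturated ketones, which clear products of lipid oxidation, were higher in 15 of 16 cases (median 1.59). Beside OYE3 and GRE2 these included the quinone oxidoreductase ZTA1 (2.09 ± 0.17) and OYE2 (1.84 ± 0.10), while ADH7 was at -0.12 (adjusted p 0.335). Of 18 drug efflux genes, 9 were higher and 2 lower. The Yap1 target FLR1 differed by 2.05 ± 0.16 and ATR1, which exports drugs and borate, by 1.98 ± 0.20, against 0.56 ± 0.11 for SNQ2.

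Storage and protective genes formed the next block. Of the 25 general stress genes, 23 were higher in acute cells and none lower (median 1.75), against 13 higher and 1 lower with arrays scaled to an SD of 1. HSP12, a small membrane-protecting protein, was at 5.16, 4.99, 5.58 and 6.0 in acute cells, against 1.56, 2.38, 2.61 and 2.29 in adapted cells. Both groups were far above 0 and did not overlap (difference 3.22 ± 0.18, adjusted p 2.56e-06). HSP12 was not called with arrays scaled to an SD of 1 (0.52, adjusted p 0.356). DDR2 (3.70), the nicotinamidase PNC1 (3.32) and STF2 (3.18) differed by as much. TMA10, at 4.36 in acute and 2.61 in adapted cells, differed by 1.75 but by -1.55 (adjusted p 0.0114) with arrays scaled to an SD of 1. GPP2, which makes glycerol, was at 0.63 in acute and 0.58 in adapted cells, a difference of 0.05 (adjusted p 0.845). Of 18 trehalose and glycogen genes, 16 were higher and none lower (median 1.05). TSL1 of the trehalose synthase complex differed by 2.85 ± 0.15, TPS1 by 2.06 ± 0.20, glycogen branching enzyme GLC3 by 1.90 ± 0.13 and the trehalase NTH1, which breaks trehalose down, by 1.81 ± 0.10. Glycogen synthase GSY2 was at 2.35, 2.51, 1.36 and 1.61 in acute cells, against -0.09, -0.11, -0.56 and -0.58 in adapted cells, so that it was raised in the one (1.96) and lowered in the other (-0.34, adjusted p 0.0328).

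Chaperone genes were higher in acute cells in 25 of 27 cases and lower in none (median 1.29). HSP31 differed by 3.0 ± 0.15, the inducible Hsp70 SSA4 by 3.0 ± 0.31, the disaggregase HSP104 by 2.87 ± 0.22 and the small heat shock proteins HSP42 and HSP26 by 2.66 ± 0.22 and 2.23 ± 0.24. HSP26 was not called with arrays scaled to an SD of 1 (0.58, adjusted p 0.307). HSC82, the constitutive Hsp90, was raised in acute cells (0.71) and lowered in adapted cells (-0.44, adjusted p 0.00241). SSE1, an exchange factor of Hsp70, was at -0.10 (adjusted p 0.615). All 32 proteasome genes were higher in acute cells, by 0.74 (RPN1) to 1.82 (PRE8), with a median of 1.48 in acute and 0.22 in adapted cells, and 4 of the 32 were called in adapted cells. The ubiquitin system had 16 of 19 genes higher and none lower (median 1.17), led by the stress polyubiquitin gene UBI4 (2.37 ± 0.26). After scaling to an SD of 1, 9 of the 19 were higher and UBI4 was not called (1.41, adjusted p 0.0896). Vacuolar hydrolases and autophagy genes had 18 of 24 higher and none lower (median 0.80). The aminopeptidase APE1 differed by 3.48 ± 0.14, the autophagosome protein ATG8 by 2.27 ± 0.13 and the vacuolar proteases PEP4 and PRB1 by 1.71 ± 0.14 and 1.4 ± 0.11. After scaling, 11 of the 24 were higher and PRB1 was not called (0.68, adjusted p 0.0506).

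**Figure D4:**
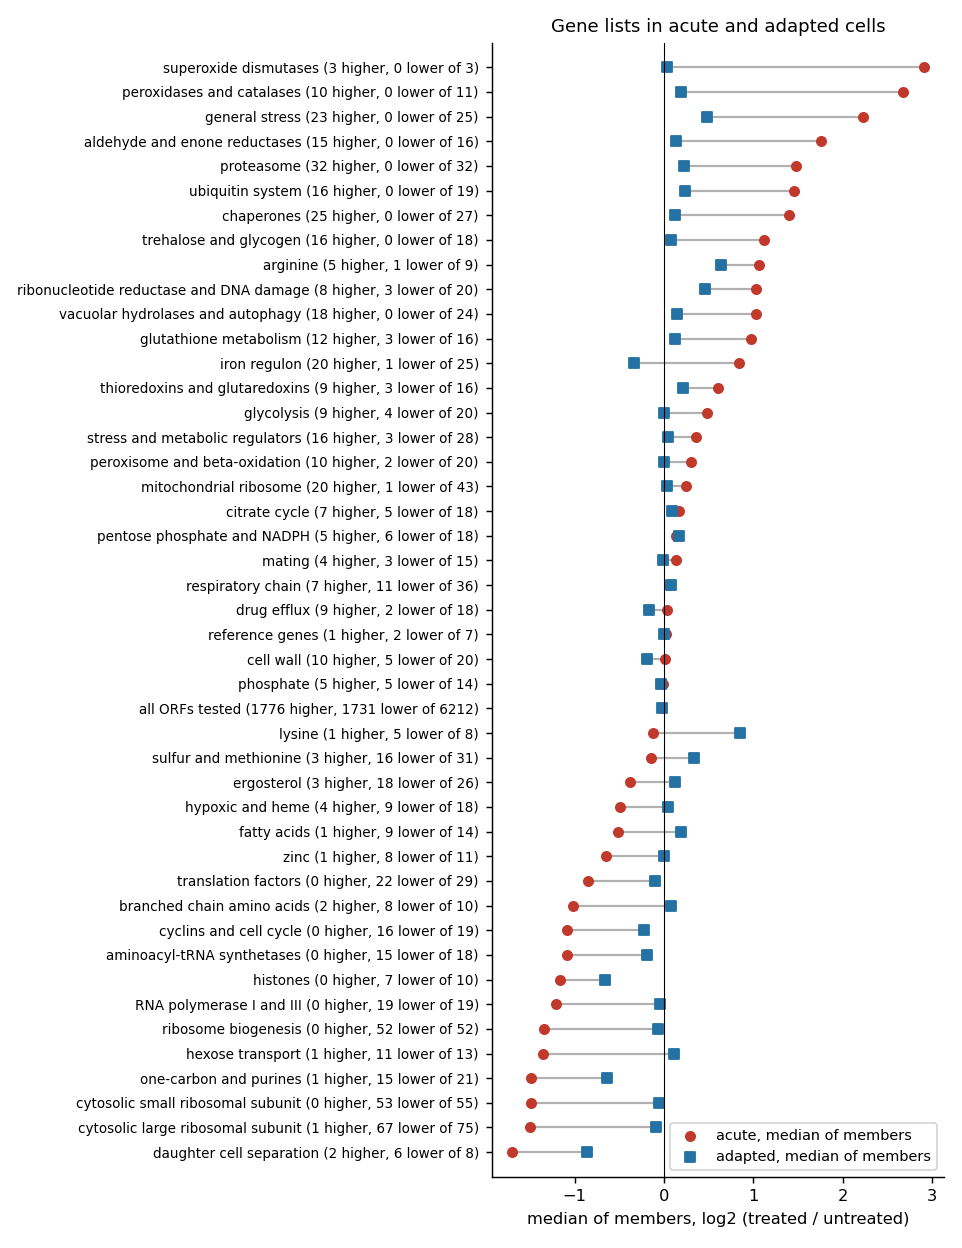
Median over the members of each gene list of the mean log2 of treated over untreated intensity, in acute (red circles) and adapted cells (blue squares), with the number of members called higher and lower in acute than in adapted cells. Adapted medians lie between -0.86 and 0.85. Lists with acute and adapted medians on opposite sides of 0 include iron uptake, lysine, sulphur, sterols, fatty acids, branched chain amino acids and hexose transport, some with a median near 0.

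Growth genes went the other way. Of the cytosolic ribosomal protein genes, 67 of 75 of the large and 53 of 55 of the small subunit were lower in acute cells, with median differences of -1.42 and -1.44. Many of these genes come in near-identical pairs whose probes may share signal. RPL10 was the one member that was higher (0.63 ± 0.17, adjusted p 0.0124, but 0.0577 with arrays scaled to an SD of 1). All 52 ribosome biogenesis genes were lower in acute cells, by 0.54 or more, with a median of -1.34 in acute and -0.07 in adapted cells. In adapted cells 2 of the 52 were called. DBP3, a helicase of ribosome assembly, was at -2.05, -2.43, -2.25 and -1.60 in acute cells, against 0.05, -0.04, -0.25 and -0.13 in adapted cells (difference -1.99 ± 0.17). All 19 RNA polymerase I and III genes were lower (median -1.19), with RPA135, the second subunit of polymerase I, at -2.12 ± 0.26. Translation factors (22 of 29 lower, median -0.61) and aminoacyl-tRNA synthetases (15 of 18 lower, median -0.79) had medians nearer 0, and after scaling to an SD of 1 they had 10 and 7 genes lower. The mitochondrial ribosome had 20 of 43 genes higher, 1 lower and a median of 0.19. Only 3 of the 43 were higher and none lower after scaling, and 2 higher and none lower without a dye term, so that its count rests on the fit chosen.

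Biosynthesis of amino acids and nucleotides split by pathway. Of 31 sulphur and methionine genes, 16 were lower in acute cells and 3 higher. Their median was -0.14 in acute and 0.34 in adapted cells, and 14 of them were raised in adapted cells. MET6, SAM1, SAM2 (-1.68 ± 0.17) and the S-adenosylmethionine permease SAM3 (-1.87 ± 0.18) lie around the making and use of methionine. SAM3 was at -1.42, -0.97, -0.97 and -0.18 in acute cells, against 0.85, 0.66, 1.37 and 1.07 in adapted cells, on opposite sides of 0. Among the genes of sulphate assimilation, MET14 differed by -1.4 ± 0.24 and MET16 by 0.24 (adjusted p 0.259). STR2, which turns cysteine towards homocysteine, was higher (1.23 ± 0.13).

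Lysine synthesis crossed 0 in the same way, with 5 of 8 genes lower and 1 higher. LYS4, homoaconitase, an iron-sulphur enzyme, was at -1.64, -1.73, -1.61 and -1.21 in acute cells, against 1.14, 1.00, 0.69 and 1.00 in adapted cells (difference -2.50 ± 0.14, adjusted p 2.48e-06). LYS9 was at -0.70, -0.82, -0.17 and -0.05 in acute cells, against 0.94, 0.90, 1.69 and 1.67 in adapted cells (difference -1.74 ± 0.08), and LYS12 differed by -1.20 ± 0.11. LYS1, of the final step, was raised in both, at 1.57 in acute and 1.43 in adapted cells (difference 0.15, adjusted p 0.3, but -1.70 and 0.00135 with arrays scaled to an SD of 1). In all, 7 of the 8 lysine genes were raised in adapted cells and 2 in acute cells. Branched chain amino acid genes had 8 of 10 lower (median -1.02), with the aminotransferase BAT2 higher (1.5 ± 0.16). Arginine genes had 5 of 9 higher and 1 lower (median 0.29). With arrays scaled to an SD of 1, none was higher and 1 lower (median -0.22). ARG4 differed by 1.19 ± 0.12 and ARG1 by -0.11 (adjusted p 0.662). After scaling, ARG4 was not called (0.31, adjusted p 0.477) and ARG1 was lower (-1.70, adjusted p 0.00228).

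Of 21 genes for folate-bound carbon units and purines, 15 were lower in acute cells and 1 higher (median -1.16), against 6 lower and 1 higher with arrays scaled to an SD of 1. SHM2, serine hydroxymethyltransferase, was at -2.91, -2.21, -3.69 and -3.92 in acute cells, against -1.31, -1.42, -0.27 and -1.19 in adapted cells, below 0 throughout (difference -2.14 ± 0.38, adjusted p 0.00107). ADE17 differed by -2.06 ± 0.42, with the lowest ratio of the array on 2 acute arrays, while its isozyme ADE16 differed by 0.66 ± 0.14. None of these 3 was called after scaling (SHM2 -0.89, adjusted p 0.331, ADE17 -0.67, adjusted p 0.401, and ADE16 0.79, adjusted p 0.129). Hexose transport had 11 of 13 genes lower and 1 higher (median -0.96), including HXT1 (-2.13 ± 0.10) and MTH1 (-1.5), which represses transporter genes.

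Cell cycle genes were lower in acute cells, 16 of 19 and none higher (median -0.87), against 10 lower and 1 higher with arrays scaled to an SD of 1. The G1 cyclin CLN2 was at -2.32, -1.98, -1.88 and -2.22 in acute cells, against -0.33, -0.57, -0.20 and -0.62 in adapted cells (difference -1.67 ± 0.14). The mitotic cyclin CLB2 differed by -1.32 ± 0.13 and the factor SWI5 by -1.58 ± 0.22, while the cyclin-dependent kinase inhibitor SIC1 was at 0.06 (adjusted p 0.709). After scaling, SWI5 was not called (-1.29, adjusted p 0.0509) and SIC1 was higher (0.73, adjusted p 0.0391). YOX1, a repressor of genes at the M to G1 transition, differed by -1.84 ± 0.15. Of 10 histone genes 7 were lower in acute cells and none higher (median -0.45). With arrays scaled to an SD of 1, 2 were lower and 1 higher (median 0.32). Against untreated cells 10 were lowered in acute and 9 in adapted cells. HTA2 (-2.17 ± 0.26) and HTB2 (-2.19 ± 0.20) differed most and HHT2 least (0.00, adjusted p 0.983, but 0.87 and 0.00781 after scaling). Genes for separation of daughter cells were lowered in both protocols, 7 of 8 in acute and 8 of 8 in adapted cells. The chitinase CTS1 was the exception, at 0.42, 0.31, 0.03 and 0.26 in acute cells, against -0.81, -1.04, -1.26 and -1.07 in adapted cells (difference 1.30 ± 0.10, adjusted p 8.61e-06). Of the 8 genes, 6 were lower in acute cells and 2 higher (median difference -0.79). With arrays scaled to an SD of 1, 3 were higher and none lower (median 0.29).

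Genes of iron uptake responded in opposite directions. Of 25 genes of the iron regulon, 20 were higher in acute cells and 1 lower (median 1.28). In acute cells 21 were raised and 2 lowered, and in adapted cells none was raised and 12 were lowered. Over all ORFs 34.5% were raised in acute and 5.8% lowered in adapted cells. FET3, the multicopper ferroxidase of high-affinity uptake, was at 1.63, 1.16, 1.03 and 0.96 in acute cells, against -0.69, -0.48, -1.28 and -0.96 in adapted cells (difference 2.04 ± 0.13, adjusted p 3.37e-06). The enterobactin transporter ENB1 was at 0.37, 0.38, 0.93 and 0.94 in acute cells, against -1.24, -0.93, -0.51 and -0.56 in adapted cells (difference 1.46 ± 0.09). Each acute value of both genes was above 0 and each adapted value below it. The same held for the metal reductase FRE1 (2.87 ± 0.23), the mitochondrial iron carrier MRS4 (2.18 ± 0.15), the permease FTR1 (1.52 ± 0.12), the siderophore transporter ARN1 (1.49 ± 0.12) and TIS11 (1.63 ± 0.18), which destabilizes messages of iron-using proteins. CCC2, which loads copper onto Fet3, was called in opposite directions (1.37 in acute and -0.34 in adapted cells), and its adapted values were 0.15, 0.25, -0.88 and -0.90, split by dye. The iron-sulphur scaffold ISU2 (2.78 ± 0.22) and heme oxygenase HMX1 (2.39 ± 0.13) were higher without a called adapted response. FIT1 (0.18, adjusted p 0.684) and ATX1 (0.21, adjusted p 0.192) did not pass. With arrays scaled to an SD of 1 the iron list had 21 higher and none lower, and FIT1 was higher (1.82, adjusted p 0.00124).

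Zinc genes leaned the other way, 8 of 11 lower and 1 higher (median -0.86), against 5 lower and none higher with arrays scaled to an SD of 1. IZH4, a membrane protein linked to zinc, was at -0.19, -0.64, -0.12 and 0.31 in acute cells, against 1.32, 1.25, 1.36 and 1.69 in adapted cells (difference -1.56 ± 0.15, adjusted p 2.55e-05), and its paralog IZH1 differed by -1.73 ± 0.17. The zinc transporter ZRT1 was lowered in both, at -1.35 in acute and -0.49 in adapted cells, and its difference was not called after scaling (-0.27, adjusted p 0.347).

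Several genes of lipid synthesis were raised in adapted cells and lowered in acute cells. Ergosterol genes had 18 of 26 lower in acute cells and 3 higher (median -0.57), and fatty acid genes 9 of 14 lower and 1 higher (median -0.89). OLE1, the fatty acid desaturase, was at -0.99, -1.46, -0.04 and 0.32 in acute cells, against 0.77, 0.87, 2.38 and 1.89 in adapted cells. Its values split by dye in both groups, the groups did not overlap, and the difference was -2.02 ± 0.15 (adjusted p 7.26e-06). ERG11, lanosterol demethylase, was at -1.20, -1.31, -2.03 and -1.99 in acute cells, against 0.69, 0.52, 0.13 and 0.15 in adapted cells (difference -2.01 ± 0.10). Squalene epoxidase ERG1 differed by -1.64 ± 0.11, the methyl sterol oxidase ERG25 by -0.97 ± 0.18 and the sterol desaturase ERG3 by -0.87 ± 0.19. These 3 enzymes, like OLE1 and ERG11, use molecular oxygen. ERG9, squalene synthase, was higher in acute cells (0.75 ± 0.19, not called with arrays scaled to an SD of 1, adjusted p 0.122). Fatty acid synthase FAS1 was at -1.02 in acute and 0.40 in adapted cells, FAS2 at -0.64 and 0.54, and the acyl-CoA synthetase FAA4 at -0.84 and 0.47, each called in opposite directions. MGA2, an activator of OLE1, was itself at -0.21 in acute and 0.40 in adapted cells (difference -0.61 ± 0.11, adjusted p 0.00143, but 0.0882 after scaling).

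Genes of heme synthesis and of low oxygen had 9 of 18 members lower and 4 higher. HEM13, coproporphyrinogen oxidase, was at -1.49, -1.46, -2.0 and -2.30 in acute cells, against 1.23, 0.70, 0.15 and 0.12 in adapted cells (difference -2.36 ± 0.13, adjusted p 2.19e-06). Ferrochelatase HEM15 (-1.53 ± 0.12) and HEM1 (-1.22 ± 0.16) were lower too. ROX1, the repressor of hypoxic genes such as HEM13, was at 1.59, 2.55, 0.25 and 0.05 in acute cells, against 0.29, 0.34, -1.37 and -1.28 in adapted cells. It was above adapted cells within each dye (difference 1.61 ± 0.18, adjusted p 7.81e-05), while its values overlap across dyes. COX5B, another Rox1 target, was higher in acute cells (1.22 ± 0.17), opposite to HEM13. DAN1, a cell wall gene of anaerobic growth, had the lowest ratio of the array on 2 adapted arrays, and its difference of -0.99 turned to 0.85 (adjusted p 0.115) with arrays scaled to an SD of 1.

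Energy metabolism was mixed. Cytochrome c gene CYC1 was at 2.23, 2.58, 2.20 and 2.25 in acute cells, against -0.46, -0.17, -0.31 and -0.24 in adapted cells, a difference of 2.61 ± 0.11 (adjusted p 8.11e-07) with every array on its side of 0. The rest of the 36 respiratory chain genes lay far from it, with 7 higher and 11 lower in all (4 and 3 after scaling) and a median of -0.06, between 0.98 ± 0.12 for ATP2 and -0.92 ± 0.14 for SDH3. Of the 36, 19.4% were thus higher and 30.6% lower, against 28.6% and 27.9% over all ORFs. In the citrate cycle 7 of 18 genes were higher and 5 lower (3 and 4 after scaling). IDH2, of isocitrate dehydrogenase, differed by 2.01 ± 0.17 and malate dehydrogenase MDH1 by 1.16 ± 0.13 (not called with arrays scaled to an SD of 1, adjusted p 0.0749), against -2.98 for MAE1. In glycolysis 9 of 20 were higher and 4 lower (4 and 1 after scaling), with glucokinase GLK1 at 2.84 ± 0.20, pyruvate kinase CDC19 at 0.07 (adjusted p 0.775) and pyruvate decarboxylase PDC1 at -1.30 ± 0.19. Peroxisome and beta-oxidation genes (10 of 20 higher and 2 lower, but 4 and 1 after scaling) spanned -0.47 to 0.79. Of 20 cell wall genes 10 were higher and 5 lower (7 and 2 after scaling), with the cell wall kinase SLT2 at 1.56 ± 0.11 and TIP1 at -2.02 ± 0.18. TIP1, a mannoprotein induced by cold, was at -0.67, 0.01, -0.33 and -0.54 in acute cells, against 1.93, 1.67, 1.19 and 1.76 in adapted cells. Phosphate genes had 5 of 14 higher and 5 lower, and mating genes 4 of 15 higher and 3 lower.

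Of the 5 genes with a larger response in adapted cells, HUG1 and RNR3 differed most, and both respond to DNA damage. HUG1, a small protein induced by DNA damage that inhibits ribonucleotide reductase, was at 1.85, 0.76, 1.16 and 1.69 in acute cells, against 3.97, 3.50, 3.50 and 3.06 in adapted cells. No acute array reached the lowest adapted one, and the difference was -2.14 ± 0.26 (adjusted p 0.000105). On adapted replicate 1 HUG1 had the highest ratio of the array, where the common distribution sets the value. RNR3, the damage-inducible large subunit of the same enzyme, was at 1.74, 1.4, 0.99 and 1.91 in acute cells, against 3.06, 2.56, 1.93 and 2.14 in adapted cells (difference -0.91 ± 0.23, adjusted p 0.00747). The groups of RNR3 nearly touch, at 1.91 in acute replicate 4 and 1.93 in adapted replicate 3. The small subunit genes were raised in both, RNR2 at 1.77 in acute and 2.05 in adapted cells (difference -0.28 ± 0.20, adjusted p 0.266) and RNR4 at 2.35 in acute and 1.74 in adapted cells (difference 0.60 ± 0.31, adjusted p 0.127, but 0.90 and 0.0205 without acute replicate 2, and -1.63 and 0.0138 with arrays scaled to an SD of 1). RNR1 did not differ by more than its error (-0.02 ± 0.21, adjusted p 0.949). With arrays scaled to an SD of 1, RNR2 (-2.97, adjusted p 0.00103) and RNR1 (-0.79, adjusted p 0.0455) were lower in acute cells.

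Of the 20 genes of ribonucleotide reductase and DNA damage as a whole, 8 were higher and 3 lower in acute cells, with a median of 1.03 in acute and 0.46 in adapted cells. Their median difference was 0.21, but -0.23 with arrays scaled to an SD of 1, when 3 were higher and 6 lower. In acute cells 17 were raised and in adapted cells 12, against 34.5% and 6.84% of all ORFs. The repair genes MAG1, a DNA glycosylase (1.36 ± 0.26), PHR1, photolyase (1.00 ± 0.18), and RAD54 (0.71 ± 0.10) were higher in acute cells, and the checkpoint kinases DUN1 (0.21, adjusted p 0.178) and RAD53 (0.05, adjusted p 0.58) were not called. MAG1 (0.33, adjusted p 0.534) and RAD54 (0.16, adjusted p 0.684) were not called after scaling. The list thus held genes of all 3 kinds, higher in acute cells, higher in adapted cells and not called. The other 3 genes of the class with a larger adapted response had small differences, SND1 (-0.32 ± 0.09), POG1 (-0.31 ± 0.10) and DSE1 (0.48 ± 0.12, a larger fall in adapted cells). POG1 was not called without acute replicate 1 or 2 or adapted replicate 1 or 2 (adjusted p 0.0541, 0.0652, 0.0708 and 0.0807).

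**Figure D5:**
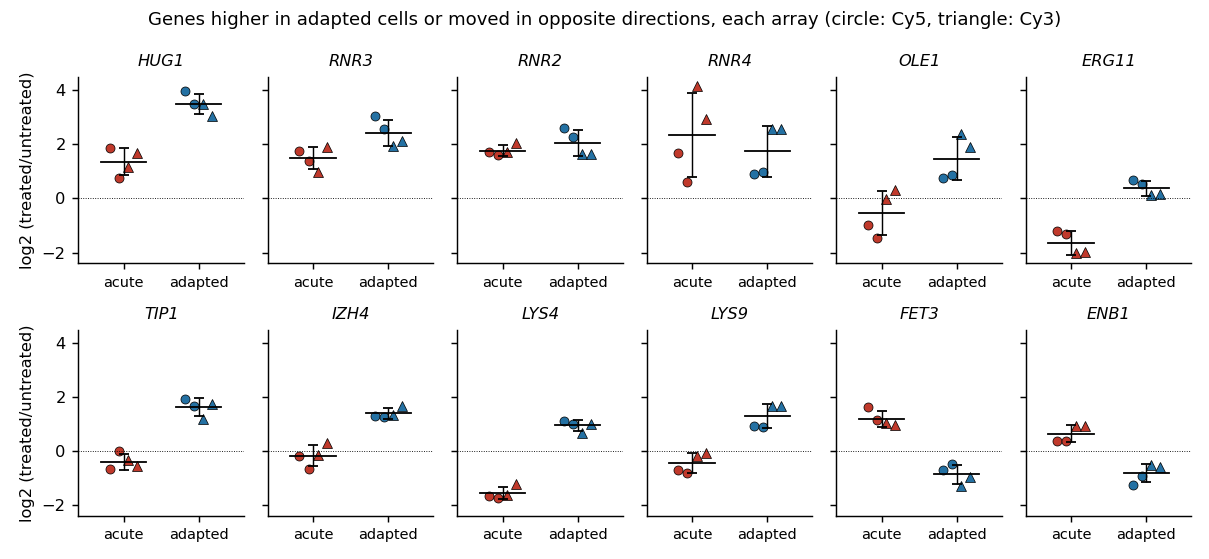
Each panel shows log2 of treated over untreated intensity for a gene on the 4 acute (red, left) and 4 adapted arrays (blue, right), with circles for treated RNA in Cy5 and triangles for Cy3, the mean as a bar and the SD as a whisker. HUG1 is between 0.76 and 1.85 in acute and between 3.06 and 3.97 in adapted cells, OLE1, ERG11, TIP1 and the lysine genes LYS4 and LYS9 are higher in adapted cells, and FET3 and ENB1 lie on opposite sides of 0.

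Responses called in adapted cells with none called in acute cells were found in 31 raised and 29 lowered ORFs with a called difference. Among those raised in adapted cells, with IZH4, ERG25 and ERG3, were the peroxisomal citrate synthase CIT2, at -0.16 in acute and 1.06 in adapted cells (difference -1.23 ± 0.28, adjusted p 0.00442), the methionine permease MUP1 (-0.78 ± 0.14), MXR1 (-0.73 ± 0.10), MET10 of sulphite reduction (-0.69 ± 0.18) and the amino acid permease BAP3 (-0.63 ± 0.13). CIT2 values overlap, since acute replicate 4 was at 1.39. MET3, ATP sulphurylase, differed by -1.06 ± 0.33 (adjusted p 0.0226) and was not called without acute replicate 4, adapted replicate 3 or adapted replicate 4 (adjusted p 0.0518, 0.066 and 0.0693). Its difference was -0.18 within the Cy5 arrays and -1.94 within the Cy3 arrays. Those lowered in adapted cells differed by less. They included the Hsp70 of the endoplasmic reticulum KAR2, at 0.10 in acute and -0.64 in adapted cells (difference 0.75 ± 0.16), the wall protein CWP1 (0.68 ± 0.13) and chitin synthase CHS1 (0.48 ± 0.12).

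Among the transcripts of regulators, 16 of 28 were higher and 3 lower in acute cells (median 0.35). YAP1 was at 2.28, 2.32, 2.06 and 2.20 in acute cells, against -0.03, 0.14, 0.50 and 0.18 in adapted cells, where its mean of 0.20 was not called (adjusted p 0.169). The difference of 2.02 ± 0.12 (adjusted p 3.27e-06) was the highest of the regulators. SKN7 was lower in acute cells (-0.74 ± 0.13, not called with arrays scaled to an SD of 1, adjusted p 0.0626), CIN5 (1.31 ± 0.19) and the heat shock factor HSF1 (0.90 ± 0.10) higher, and the proteasome regulator RPN4 differed by 0.82 ± 0.12. MSN2 was at 0.51 ± 0.09 (adjusted p 0.0011) and MSN4 at 0.20 ± 0.12 (adjusted p 0.166). Of 7 genes often used as references, ACT1, actin, was higher in acute cells, at 0.73, 0.66, 0.92 and 1.08, against -0.08, 0.00, -0.18 and -0.23 in adapted cells (difference 0.97 ± 0.11, adjusted p 8.51e-05). It kept this direction under each scaling. TAF10 was at -0.25 ± 0.08 (adjusted p 0.0207, but 0.0879 without adapted replicate 1 and 0.391 with arrays scaled to an SD of 1), TUB2 at 0.05 ± 0.08 (adjusted p 0.606) and ALG9 at -0.17 ± 0.10 (adjusted p 0.181).

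Restricting the series to ORFs with values on all 24 arrays leaves 4373 and sets aside 1839 of those tested here, which lacked values on other arrays. On the 12 wild type arrays 6202 ORFs had values, so that most gaps lay on deletion strain arrays. Of the 1839, 502 (27.3%) were higher and 284 (15.4%) lower in acute cells, against 1274 (29.1%) and 1447 (33.1%) of the 4373. The ORFs set aside include some of the strongest responders, SRX1, ECM4, OYE3 and AAD4 among them, together with AHP1, CTA1, CTT1, YAP1 and ROX1. OSI1 was at 5.71, 5.58, 5.71 and 5.86 in acute cells, against 2.56, 3.06, 2.02 and 2.61 in adapted cells, the second highest mean in acute and the fourth highest in adapted cells. The difference of OSI1, 3.15 ± 0.18, became -0.01 (adjusted p 0.992) with arrays scaled to an SD of 1. GAP1, the general amino acid permease, differed by 2.81 ± 0.26 and the aldehyde dehydrogenase ALD3 by 2.67 ± 0.19. On the lower side, beside YOX1, MTH1 and GRX8, were MET2 of homocysteine synthesis (-1.52 ± 0.14), which was lowered in acute (-0.33) and raised in adapted cells (1.19), BIO4 of biotin synthesis (-1.25 ± 0.16) and the sterol importer AUS1 (-1.25 ± 0.14). The phosphate transporter PHO89 was lowered in both, at -2.30 in acute and -1.10 in adapted cells, and its difference of -1.19 turned to 0.18 (adjusted p 0.652) with arrays scaled to an SD of 1.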

How the data were processed

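Poly(A) RNA of treated and untreated cells was labelled with Cy3 and Cy5 and hybridized to Agilent yeast arrays read on 2 scanner models, with the scanner of each array not given in the sources used here. The deposited table held channel intensity values per ORF after background correction and quantile normalization by the authors, and their log2 ratios were taken here as treated over untreated. A deposited table of spots held natural log ratios without gene names and served for counts only. The error model of the authors' methods (VERA with a dye correction) was replaced by limma 3.58.1 in R 4.3.3 (lmFit and eBayes on 8 arrays, group means and a dye term), tested on simulated data. Python 3.11.15 with pandas 2.3.3 and numpy 2.4.6 made the summaries. P-values were adjusted by Benjamini-Hochberg over 6212 ORFs. Names came from a RefSeq table that held 5735 of these ORFs, 5220 of them with a symbol. Of the listed symbols, AAD16, ADE5,7 and ARG5,6 were not matched. Array number, with 4 per group, limits the precision.

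The members and gene lists were chosen with earlier results of these data known. Genes named are the 15 highest and 15 lowest called ORFs without overlap, the 10 highest and 10 lowest among ORFs missing on other arrays of the series, up to 10 of each small response class, and list members with the largest difference or no call. Of these, some were left unnamed to keep the text short. Promoter sequences were not used here. Alternatives covered the dye term, a replicate block, the arrays fitted, centring, scaling, loess, an intensity filter, the prior variance, the threshold, the table of spots and each array left out. The fit of each channel by itself and the omission of ORFs at a group's ceiling or floor were added after seeing the data.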

Additional observations from a re-analysis of the deposited data

Results flagged for a closer look

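In 16 of the 420 gene and group sets of 4 arrays examined, 1 array stood apart from the others by the Dixon test. Chance flags about 1 in 20 sets of 4 alike, normally spread values. These sets mix 2 Cy5 and 2 Cy3 arrays, so that rate need not hold for them. No explanation was tested. In acute cells, HTB2 was at -2.0 on replicate 2 (median of the other 3 arrays -3.13), SND1 at -0.04 on replicate 2 (0.27) and CYC1 at 2.58 on replicate 2 (2.23). ZWF1 at 2.43 (3.06) and SOL4 at 1.92 (2.91), both of the pentose phosphate pathway, were low on acute replicate 3, and YCF1 was at 1.56 on acute replicate 1 (1.42). In adapted cells, replicate 1 was low for the stress genes HSP26, at 0.89 (1.52), and GRE2, at -0.28 (0.27), for APE1, at 0.30 (0.69), for GSH2, at -0.29 (-0.10), and for TSA2, at 3.50 (3.97). The other 3 TSA2 values were the highest ratio of their array, where the common distribution sets the value. Replicate 2 was high for AHP1, at 1.93 (0.60), and low for TAF10, at -0.16 (-0.03). Replicate 3 was low for ERG25, at 0.53 (0.77), and high for RPA135, at -0.06 (-0.14), and replicate 4 was high for DUN1, at 0.78 (0.35).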

How the results depend on the processing

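For named genes the alternatives covered the difference. Calls of single genes against untreated cells, such as a fall in adapted cells, were not followed through them. Of the 210 genes named, 7 changed the sign of their difference under an alternative fit while called in it or in the main fit. Sign changes of genes called in neither fit were not counted. The 7 did so when arrays were divided by their SD: TSA2 (-2.10), TMA10 (-1.55), LYS1 (-1.70), RNR4 (-1.63), OSI1 (-0.01), PHO89 (0.18) and DAN1 (0.85). Another 25 lost their call and 7 gained one under that scaling, as given beside their values, and 30 lost it without a dye term, among them AHP1, ROX1, CIT2, KAR2, MET14, SAM2, MXR1, RPN4 and PDC1. That scaling, in units of an array's SD, gave 927 ORFs higher and 859 lower, 1484 called in adapted cells, and 227, 41 and 173 in the classes larger in acute, larger in adapted and adapted only. Without a dye term 847 were higher and 793 lower, 72 were called in adapted cells, and 6, 35, 2 and 5 were opposite, larger in acute, larger in adapted and adapted only. With a dye term for each group 8 were larger in adapted cells. With 12 wild type arrays 163 were opposite and 100 adapted only, and with all 24 arrays 2 were larger in adapted cells. At an adjusted p under 0.01, 280 were called in adapted cells, and 41, 119, 3 and 19 were opposite, larger in acute, larger in adapted and adapted only. The table of 10807 spots gave 3262 higher, 1443 lower and 305 called in adapted cells (158 raised and 147 lowered), and with arrays centred 2433 higher and 2158 lower, with 349 raised and 139 lowered in adapted cells. The replicate block gave 434 called in adapted cells and 58 opposite, 214 larger in acute and 30 adapted only, while 3163 of the 3507 differences were called again. Replicate numbers were taken as numbers only. Same-numbered arrays deviated together (r 0.633 to 0.844), as did arrays of the same dye with another number (0.730 to 0.865). With dye removed the values were -0.122 and -0.249 for the former and 0.122 and 0.249 for the latter. With 2 arrays per group and dye these are equal and opposite by construction. They cannot show whether same-numbered arrays belong together. Leaving out 1 array in turn gave 1459 to 1924 higher, 1437 to 1875 lower, 3972 to 4558 called in acute and 219 to 1351 in adapted cells, and 40 to 166 opposite, 101 to 654 larger in acute, 4 to 11 larger in adapted and 10 to 98 adapted only. The cause of these shifts was not tested.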
